A study of Mus musculus with 6 samples.

Results

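The genes described here encode myosin light chains, a kinase that acts on them, and the proteins that bind myosin along the thick filament of the sarcomere. The 10 genes were chosen as a family by symbol, with no threshold on their values, though earlier results of these data were known: Myl1, Myl2, Myl3, Myl4, Mylpf, Myl6b, Mylk2, Mybph, Mybpc1 and Mybpc2. All 10 were among the 23279 genes measured. Expression was profiled on 6 arrays, from 3 activated and 3 control cultures of primary myoblasts, the dividing precursors of skeletal muscle fibres. The activated cultures were treated with 4-OH tamoxifen, given in ethanol, and the control cultures with ethanol alone, while the cells differentiated. All cultures, controls included, came from limb muscle of C57bl6N mice that carried Pax7-CreERT2 and 1 beta-catenin allele with loxP sites around exon 3, spelled Beta-cetenin-Exon3-loxP/+ in the labels, and all had 24 hours of low-serum culture in 2% HS after 5 passages with 20% FBS and bFGF at 2 ng/ml. Recombination removes the exon that encodes the phosphorylation sites marking beta-catenin for degradation, and the Cre is driven by Pax7, a gene of muscle stem cells and myoblasts. The age and sex of the mice, the tamoxifen dose and the share of cells that recombined are not given. Because control cells received no tamoxifen, effects of the drug and of the stabilised protein cannot be told apart.

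Each skeletal myosin molecule pairs its heavy chains with essential light chains, which stiffen the lever arm, and regulatory light chains, which are phosphorylated by a calcium- and calmodulin-dependent kinase. Myosin-binding proteins sit in stripes along the thick filament and tune how myosin heads meet actin. Developing muscle uses embryonic and atrial-type light chains beside the fast ones, and slow fibres share their light chains with the heart ventricle.

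The mean was higher in activated than in control cultures for 9 of the 10 genes, against 40.3% of all genes. Transcripts of 7 of them averaged 2.42 to 4.76 times higher in activated than in control cultures: Mybph, Myl6b, Myl4, Myl1, Mylpf, Myl2 and Mybpc1. Mylk2 and Mybpc2 averaged higher by 0.12 and 0.17 on the log2 scale, and Myl3 averaged 0.79 times the control level. The share of 40.3% counts dim genes too, and brighter genes shifted upward as a whole. Among the 9001 genes with a mean of at least 5, which hold 7 of the 10, the median log2 change was 0.20. Over all genes it was -0.08. The spread among cultures was wide, and 0 of the 10 genes passed an adjusted p of 0.05 in limma's moderated test (adjusted p 0.29 to 0.926), as for 0% of all 23279 genes. At an unadjusted p under 0.05, 4 of 10 genes (Mybph, Myl1, Myl6b and Myl4) were called, all higher, against 7.86% of all genes in either direction and 4.44% in the higher direction. The replicate numbers in the titles were treated as pairing the cultures, from correlated deviations of same-numbered arrays, although no label ties a number to an animal or day. With the number as a block, 7 of 10 were called at that unadjusted level, all higher, against 16.6% of all genes in either direction and 9.63% in the higher direction. After adjustment over all genes 0 of the 10 passed with the block, against 0.133% of all genes, the lowest adjusted p being 0.0651, that of Mybph. Leaving out activated replicate 2 reduced that first count to 1 of 10, the gene being Mybph, against 3.9% of all genes in that setting. Leaving out activated replicate 3 brought it to 6, against 8.55% of all genes. In these bulk cultures, more differentiated cells and more transcript per cell cannot be told apart.

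**Figure D1:**
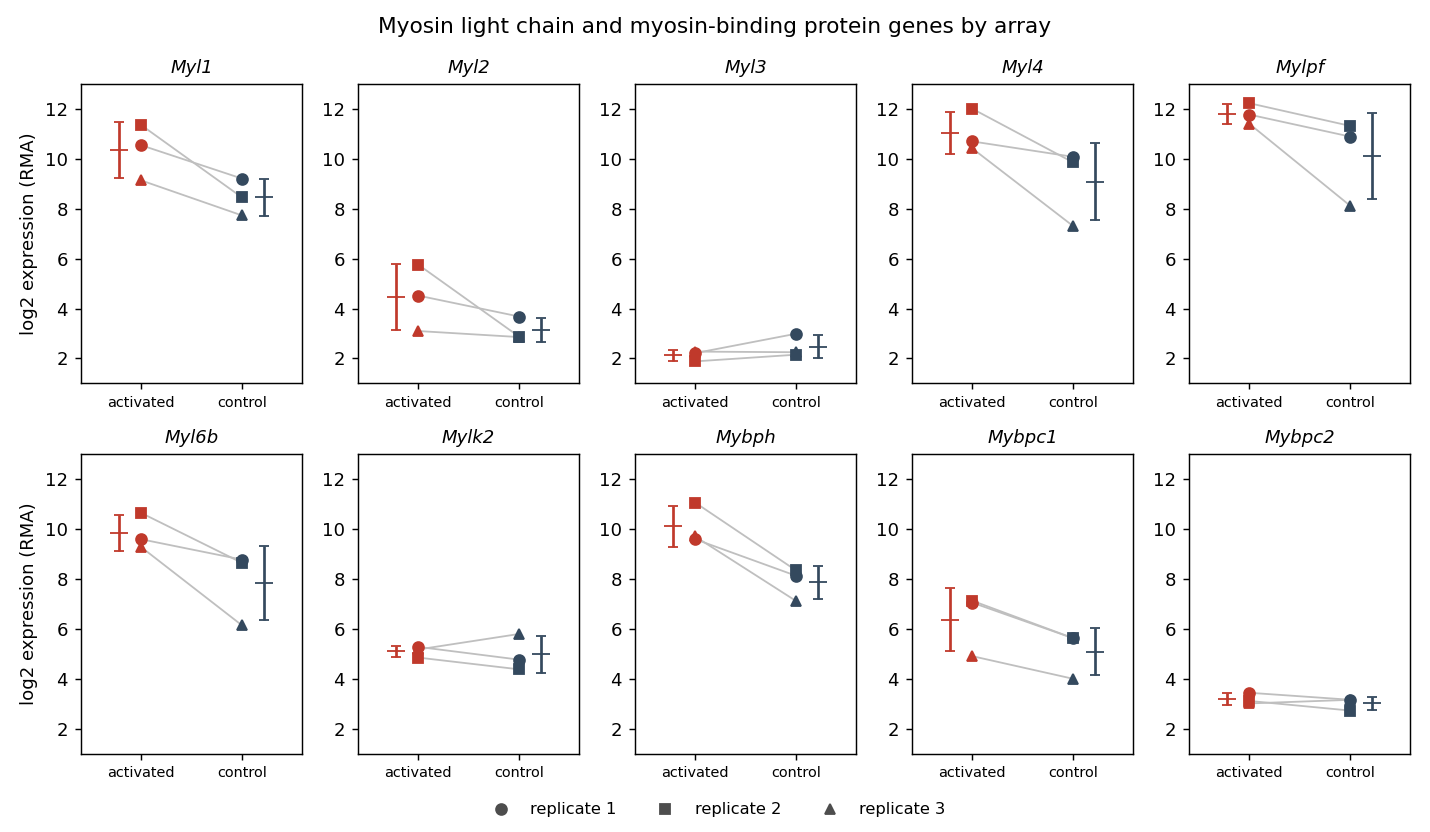
Log2 expression (vertical axis) of each of the 10 genes in the 3 activated and 3 control cultures. Points are arrays, with the shape giving the replicate number, grey lines join arrays of the same number, and bars beside the points are the mean and SD of each group. Activated replicate 2 holds the highest value and control replicate 3 the lowest value of 7 genes.

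The stretches upstream of Mybph, Mylpf, Mybpc1 and Myl1 are shown because these genes averaged higher in activated cultures and because each stretch holds CAGCTG, a form of the E-box CANNTG to which MyoD and myogenin bind. Myl2 meets both conditions too, in the second of its 2 windows, and its sequence is left out for length. They are the 250 bases before the start site in RefSeq's annotation of GRCm38.p6, written 5′ to 3′ on the gene's strand, with CAGCTG in capitals. Mybph lies at chr1:134193198-134193447 on the plus strand, Mylpf at chr7:127211358-127211607 on the plus strand, Mybpc1 at chr10:88605153-88605402 on the minus strand and Myl1 at chr1:66945057-66945306 on the minus strand.
Mybph: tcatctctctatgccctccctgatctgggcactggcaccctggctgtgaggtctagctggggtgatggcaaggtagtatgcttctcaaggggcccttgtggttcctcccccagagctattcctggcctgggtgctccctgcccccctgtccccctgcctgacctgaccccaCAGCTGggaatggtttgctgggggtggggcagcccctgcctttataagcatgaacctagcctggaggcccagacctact
Mylpf: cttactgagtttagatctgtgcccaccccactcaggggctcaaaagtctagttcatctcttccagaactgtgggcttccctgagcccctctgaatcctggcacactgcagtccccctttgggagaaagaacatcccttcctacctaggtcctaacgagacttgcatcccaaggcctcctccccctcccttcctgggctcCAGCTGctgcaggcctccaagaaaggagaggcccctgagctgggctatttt
Mybpc1: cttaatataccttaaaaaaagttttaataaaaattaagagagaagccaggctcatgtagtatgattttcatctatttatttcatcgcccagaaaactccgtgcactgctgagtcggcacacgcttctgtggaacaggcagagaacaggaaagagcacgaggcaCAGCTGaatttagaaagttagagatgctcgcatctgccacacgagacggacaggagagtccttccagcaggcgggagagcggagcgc
Myl1: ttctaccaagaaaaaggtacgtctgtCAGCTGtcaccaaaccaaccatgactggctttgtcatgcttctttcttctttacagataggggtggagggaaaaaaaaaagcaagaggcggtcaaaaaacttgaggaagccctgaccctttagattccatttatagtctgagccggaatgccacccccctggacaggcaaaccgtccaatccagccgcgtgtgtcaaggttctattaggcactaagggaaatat
In Mybph the CAGCTG begins 79 bases before the start site and is followed directly by ggaatg, the reverse complement of the MCAT letters CATTCC that TEAD factors recognise. In Mylpf it begins 51 bases before the start, in Mybpc1 87 bases, in Myl1 224 bases and in the second window of Myl2 130 bases. The Myl1 and Mylpf windows belong to internal start sites, 2876 and 2760 bases inside the outermost end of the annotated gene, as does that of Myl4, 4646 bases inside. Myl1 is known to make 2 proteins, MLC1f and MLC3f, from separate promoters.

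RefSeq windows of 300 bases, from 250 before to 50 after a start site, were matched for 9 of the 10 genes, with Mylk2 the gene not matched and Myl2 holding 2 windows. Letters were searched on both strands, except TATAAA on the gene's strand alone. CAGCTG was in 6 of the 10 windows (both of Myl2 among them), against 16.3% of the 32851 windows of all genes. Any E-box CANNTG, which includes CAGCTG, was in 9 of 10 windows against 72.3%, and Myl4 was the gene without one. CATTCC was in 4 of 10 windows (Myl1, Mybph, Mybpc2 and Myl3) against 14.7%, and the CArG box bound by serum response factor was in 1 (Myl3) against 1.63%. The TCF/LEF letters CTTTGA were in 0 of 10 windows against 16%, the MEF2 site in 0 against 3.19%, and TATAAA in 0 against 8.32%. These matches describe the letters in the windows and were not tested for binding. Of the genes whose windows lack CAGCTG, Myl4 and Myl6b averaged higher by over 1.9 on the log2 scale and Myl3 and Mybpc2 differed by under 0.4. Those with it, Myl1, Mybph, Myl2, Mylpf and Mybpc1, averaged higher by 1.28 to 2.25. A relation of CAGCTG to the changes was not tested.

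Among the essential light chains, Myl4 (Entrez 17896), the form of atrium and embryonic muscle, was at 10.69, 11.998 and 10.41 on the log2 scale in activated replicates 1, 2 and 3, against 10.07, 9.85 and 7.30 in control replicates 1, 2 and 3. Each activated culture lay above each control culture, and control replicate 3 stood far below the other controls. The difference of means was 1.96 ± 0.77 (SE, n = 3 each; limma, adjusted p = 0.599), and 1.07 without control replicate 3. Myl6b (Entrez 216459), an essential light chain of slow muscle and non-muscle cells, was at 9.58, 10.63 and 9.27 in activated cultures, against 8.76, 8.63 and 6.13 in control cultures. It had the same shape as Myl4, with no overlap and the lowest value in control replicate 3. The difference was 1.98 ± 0.72 (SE; limma, adjusted p = 0.567), and 1.13 without control replicate 3. Between arrays, Myl4 and Myl6b differed in their centred values by a root mean square of 0.0904, the smallest of all pairs among the 10 genes.

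Myl1 (Entrez 17901), the fast skeletal essential light chain, was at 10.54, 11.34 and 9.13 in activated cultures, against 9.20, 8.45 and 7.73 in control cultures. The groups overlapped narrowly, because activated replicate 3 lay just under control replicate 1 (a difference of -0.07). The difference was 1.88 ± 0.60 (SE; limma, adjusted p = 0.489; 0.0991 with the block), and it ranged from 1.37 to 2.48 over all alternatives run. Within the numbered pairs Myl1 was higher in activated cultures by 1.33, 2.90 and 1.40. Myl3 (Entrez 17897), the essential light chain of slow fibres and the ventricle, was at 2.21, 1.88 and 2.28 in activated cultures, against 2.99, 2.15 and 2.25 in control cultures. Its groups overlapped, and the difference of -0.34 ± 0.29 (SE; limma, adjusted p = 0.764) was -0.08 without control replicate 1. The files hold no detection calls, so whether values this low stand for expression cannot be said.

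Of the regulatory light chains, Mylpf (Entrez 17907), the fast skeletal form, was at 11.76, 12.22 and 11.40 in activated cultures, against 10.88, 11.31 and 8.12 in control cultures. The activated cultures lay above the control cultures by a margin of 0.09, and control replicate 3 stood far below the other controls. The difference of means was 1.69 ± 0.78 (SE; limma, adjusted p = 0.649), against 0.70 without control replicate 3. Myl2 (Entrez 17906), the form of slow fibres and the ventricle, was at 4.52, 5.76 and 3.10 in activated cultures, against 3.68, 2.88 and 2.86 in control cultures. Activated replicate 3 lay among the controls. The difference was 1.32 ± 0.63 (SE; limma, adjusted p = 0.663), falling to 0.67 without activated replicate 2 and reaching 2.00 without activated replicate 3. Mylk2 (Entrez 228785), the skeletal muscle kinase of these regulatory chains, was at 5.27, 4.84 and 5.17 in activated cultures, against 4.76, 4.37 and 5.79 in control cultures. Its highest and its lowest value were both in control cultures, and the difference was 0.12 (95% interval -0.76 to 1.00; limma, adjusted p = 0.926). The sign turned to -0.18 without control replicate 2.

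Mybph (Entrez 53311), encoding myosin-binding protein H, had the clearest separation of the 10 genes. It was at 9.58, 11.05 and 9.69 in activated cultures, against 8.12, 8.33 and 7.11 in control cultures. The lowest activated culture exceeded the highest control culture by 1.25, the widest such margin among the 10. The difference was 2.25 ± 0.48 (SE; limma, adjusted p = 0.29; 0.0651 with the block), or 4.76-fold, and its p ranked 162 of 23279 genes. It lay between 1.78 and 2.65 in each of the 16 alternatives run, some of which cannot change it. Mybpc1 (Entrez 109272), the slow form of myosin-binding protein C, was at 7.04, 7.12 and 4.90 in activated cultures, against 5.62, 5.62 and 3.99 in control cultures. Replicate 3 was lowest in both groups, and the groups overlapped although each activated culture exceeded the control of its own number, by 1.42, 1.50 and 0.91. The difference was 1.28, with an SE of 0.69 without the block (limma, adjusted p = 0.695) and 0.21 with it (limma, adjusted p = 0.0841). Leaving out control replicate 3 gave 0.73, and leaving out activated replicate 3 gave 2.00. Mybpc2 (Entrez 233199), the fast form, was at 3.43, 3.11 and 3.01 in activated cultures, against 3.15, 2.72 and 3.15 in control cultures, a difference of 0.17 (95% interval -0.38 to 0.73; limma, adjusted p = 0.836). Leaving out control replicate 2 gave 0.03, and leaving out activated replicate 1 gave 0.048.

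**Figure D2:**
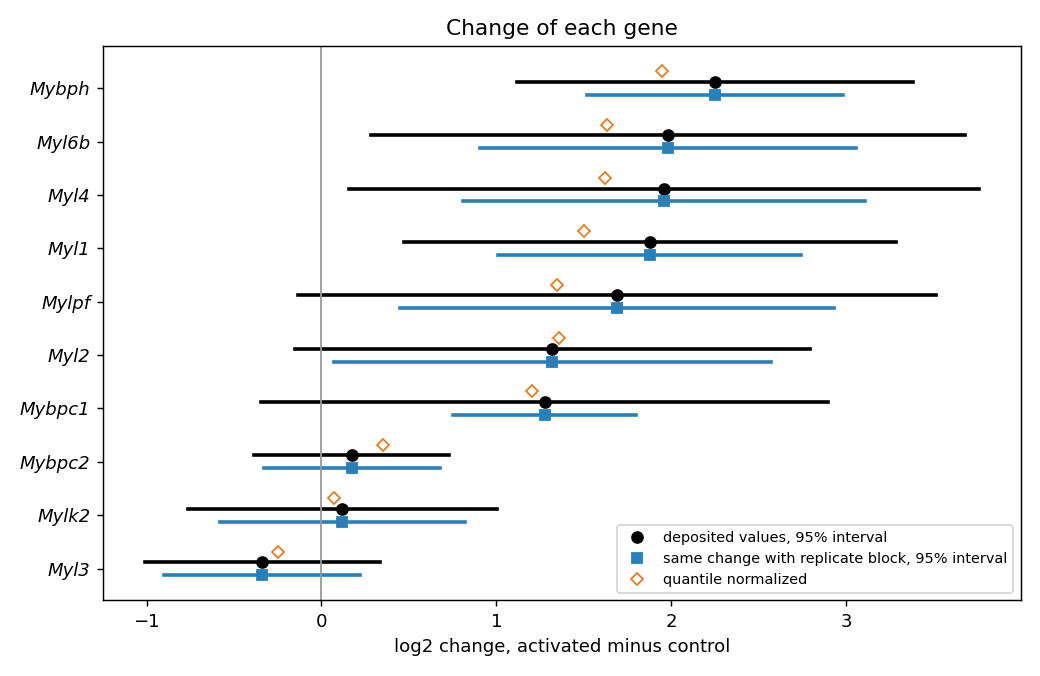
Log2 change of each gene, activated minus control (horizontal axis), with its 95% interval from limma without the block (circles) and with the replicate number as a block (squares), and the change after quantile normalization (diamonds). Without the block the intervals of Mybph, Myl6b, Myl4 and Myl1 lie above 0, and with it those of Mylpf, Myl2 and Mybpc1 do too; the intervals are not adjusted for the number of genes.

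Each activated array lay above each control array for 4 of the 10 genes (Mybph, Myl6b, Myl4 and Mylpf), against 5.4% of all genes, and below for 0 of 10, against 7.4%. Without activated replicate 3 the count of genes whose groups did not overlap in either direction was 7, with Myl1, Myl2 and Mybpc1 added, while the share of all genes without overlap went up to 25%, against 12.8% with all 6 arrays. After quantile normalization Myl4 left this set and Mybpc2 entered it. After cyclic loess it held Myl6b, Mybph and Mybpc2, and after median centring it held Myl1 and Mybpc2 beside the first 4. Myl6b and Mybph were in the set on the deposited values and under each of these 3 scalings. Leaving out an array cannot make separate groups overlap, so it is no check on this set. In all 3 numbered pairs, 7 genes were higher in the activated culture, against 16.6% of all genes. In pair 1, 3 of the 10 differences exceeded the 95th percentile of all genes (1.06), in pair 2 this held for 6 (percentile value 1.10) and in pair 3 for 5 (1.38). The pairs differed in which genes stood out. Pair 3 had the largest differences of Mylpf (3.28), Myl6b (3.13) and Myl4 (3.11), and pair 2 those of Myl1 (2.90), Myl2 (2.88) and Mybph (2.71).

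**Figure D3:**
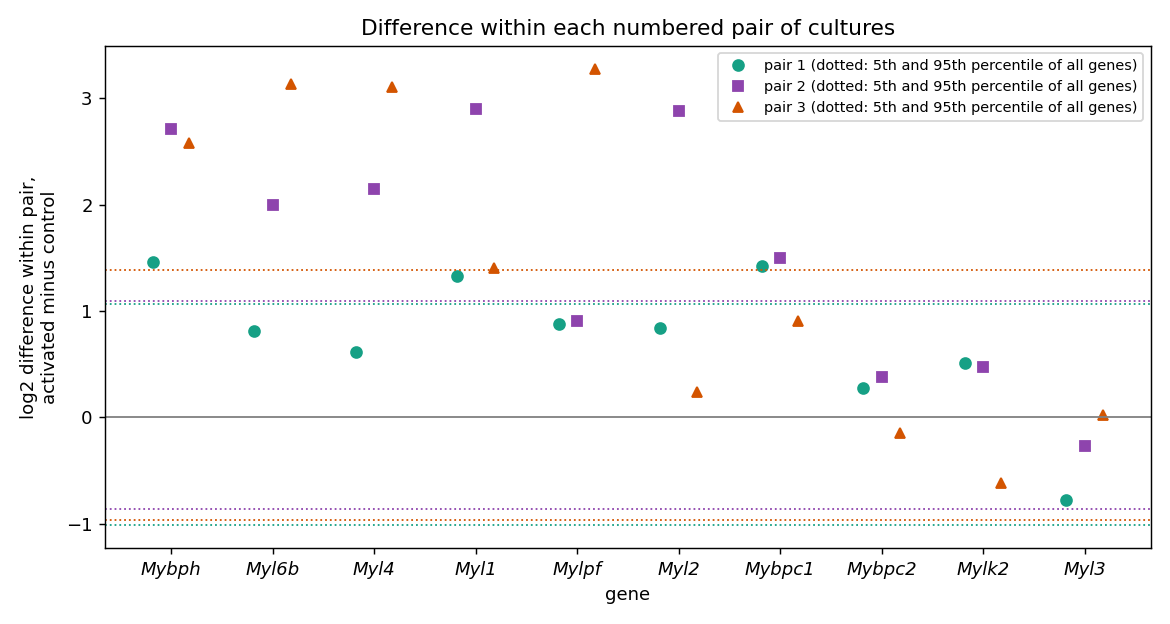
Log2 difference within each numbered pair, activated minus control (vertical axis), for the 10 genes ordered by mean change. Dotted lines mark the 5th and 95th percentile of all 23279 genes in each pair. In pair 3 Mylpf, Myl6b and Myl4 lie above 3, while Mybpc2 and Mylk2 lie below 0.

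Across the 6 arrays, 7 of the 10 genes were highest in activated replicate 2 and 7 were lowest in control replicate 3, against 16.2% and 19.6% of all genes. The same 7 genes did both, against 8.11% of all genes. They differed in the cultures between these extremes. Myl4, Mylpf and Myl6b had activated replicate 3 closer to activated replicate 1 than to activated replicate 2, and in control replicate 3 their values minus the mean over the 6 arrays were -2.75, -2.83 and -2.70. Mybpc1, Myl1 and Myl2 had activated replicate 3 below their own mean over the 6 arrays, at -0.82, -0.27 and -0.70. Mybph too had activated replicate 3 closer to activated replicate 1, with a centred value of -1.87 in control replicate 3. None of Mylk2, Mybpc2 and Myl3 was highest in activated replicate 2 or lowest in control replicate 3. Mybpc2 and Myl3 lay just below their own means in activated replicate 3, at -0.09 and -0.02, and Mylk2 was highest in control replicate 3.

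The 6 other genes whose centred values lay nearest to the mean pattern of the 10 were Mboat2, Vgll3, Oip5os1, Stim1, Idh3a and 3425401B19Rik. Their root mean square differences from it over the 6 arrays were 0.118 to 0.176 on the log2 scale. The 10 genes themselves lay farther from it, at 0.471 (Myl1) to 1.06 (Mylk2). The mean pattern is thus not that of any 1 of the 10. Mboat2, an acyltransferase gene of membrane lipid remodelling, was at 7.36, 7.92 and 6.44 in activated cultures, against 6.60, 6.41 and 5.30 in control cultures. Stim1, the calcium sensor of the sarcoplasmic reticulum, was at 7.41, 7.60 and 6.35 in activated cultures, against 6.35, 5.85 and 5.11 in control cultures. None of the 6 passed limma's test over all genes (adjusted p 0.49 to 0.65, and 0.0816 to 0.177 with the block). The likeness is measured on the same arrays as the differences between groups and says nothing of shared control.

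**Figure D4:**
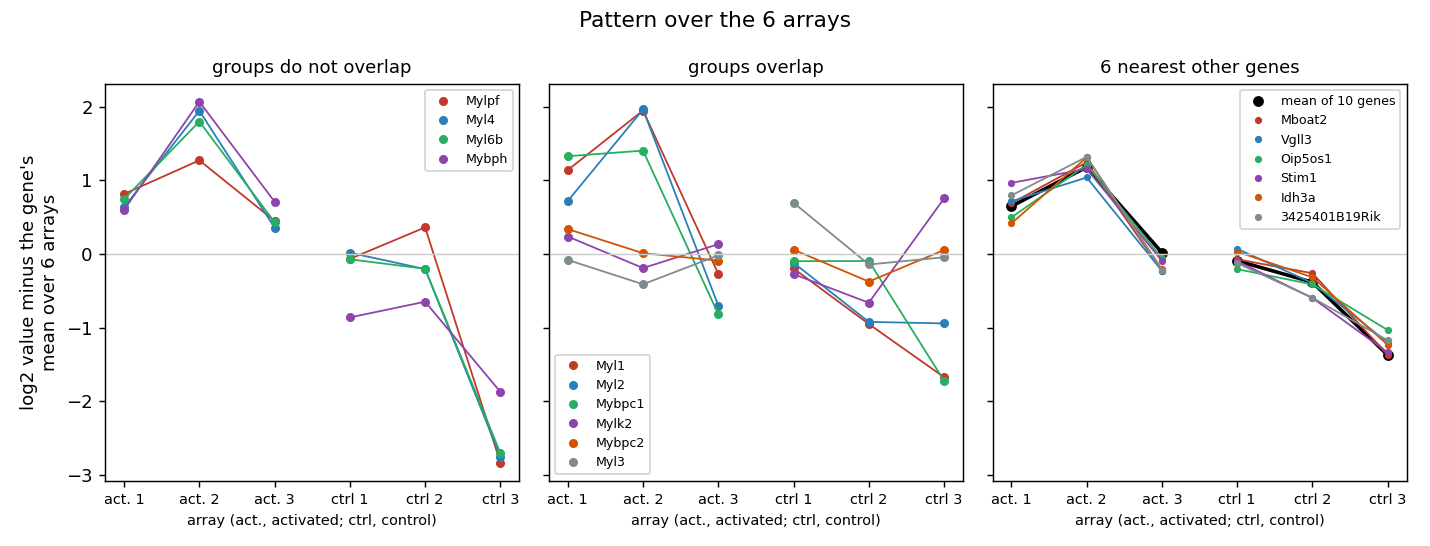
Log2 value minus the gene's mean over the 6 arrays (vertical axis) for each array, in the 4 genes whose groups do not overlap, the 6 whose groups overlap, and the 6 other genes nearest to the mean of the 10. Lines only help to follow a gene, since replicates have no order. Control replicate 3 is the low point of 7 genes and lies farthest down in Myl4, Mylpf and Myl6b. Activated replicate 3 is low as well in Mybpc1, Myl2 and Myl1, which are among those 7.

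Among other light chains, light chain kinases, phosphatase subunits and myosin-binding proteins, 8 of 13 measured genes had the higher mean in activated cultures, against 40.3% of all genes. The list's median log2 change was 0.23 against -0.08 over all genes and 1.51 for the 10 genes above. After cyclic loess the list's median was 0.049. None of the 13 passed limma's test, and 2 were called at an unadjusted p under 0.05, each higher, against 4.44% of all genes in that direction. After adjustment 1, Mylk4, rose with the block, against 0.133% of all genes called in either direction. Mylk4, a further member of the myosin light chain kinase family, was at 9.55, 9.71 and 7.67 in activated cultures, against 7.61, 7.12 and 5.50 in control cultures. Its groups did not overlap, and its difference was 2.23 ± 0.70 (SE; limma, adjusted p = 0.478; 0.0479 with the block), a call that ended when the arrays were quantile-normalized before the blocked test, where 0 genes passed. The non-muscle regulatory light chain genes Myl12a and Myl12b differed by 1.17 and 0.89 (limma, adjusted p = 0.504 and 0.725). The difference between the 10 genes and this list was not tested.

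Sarcomeric myosin heavy chains, the partners of these light chains, averaged higher for 7 of 10 genes, against 40.3% of all genes. Their median log2 change was 0.95. At an unadjusted p under 0.05, 5 were called, all higher, against 4.44% of all genes in that direction. After adjustment over all genes 0 passed with or without the block. Myh1, the fast 2X form, was at 10.45, 10.75 and 9.19 in activated cultures, against 8.31, 7.29 and 5.56 in control cultures, a difference of 3.07 ± 0.71 (SE; limma, adjusted p = 0.325; 0.0507 with the block). The embryonic form Myh3 differed by 1.32 and the perinatal form Myh8 by 2.17, and in all 3 of these genes the groups did not overlap. Of the 10 heavy chains, each activated array lay above each control array in 4 and below in 1, against 5.4% and 7.4% of all genes. The 4 non-muscle and smooth muscle heavy chains averaged lower, as 13896 of all 23279 genes did, with a median of -0.44. Myh10, a non-muscle form, differed by -1.09 ± 0.34 (SE; limma, adjusted p = 0.479), Myh9 by -0.55 and Myh14 by -0.33.

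Genes of myosin folding and thick filament assembly averaged higher for 11 of 11 measured members, against 40.3% of all genes, with a median log2 change of 1.43. At an unadjusted p under 0.05, 8 were called, all higher, against 4.44% of all genes in that direction. None passed over all genes with or without the block. The M-band genes Myom2 and Myom1 differed by 2.42 and 2.41 and the LIM-domain gene Fhl1 by 1.69 (limma, adjusted p = 0.256, 0.281 and 0.325). Regulators of muscle genes averaged higher for 9 of 10 measured members, against 40.3% of all genes. Their median log2 change was 0.91 (0.57 after quantile normalization and 0.47 after cyclic loess). Of these, Tead4 differed by 1.20, Mef2a by 0.99 and Mef2c by 2.04 (limma, adjusted p = 0.36, 0.39 and 0.465), and Mef2c, whose protein binds MEF2 sites, rose with the block (limma, adjusted p = 0.0479), a call that also ended after quantile normalization. Myog, the gene of the differentiation factor myogenin, had its extremes in the same arrays as 7 of the 10 genes. It was at 9.36, 11.33 and 10.01 in activated cultures, against 8.68, 8.85 and 6.51 in control cultures, highest in activated replicate 2 and lowest in control replicate 3. Of all genes, 8.11% had both extremes in these arrays. The difference of Myog was 2.22 ± 0.72 (SE, limma, adjusted p = 0.502, and 0.142 with the block). Unlike Myl1 and Myl2, its value in activated replicate 3 lay above all controls. Its part in the light chain differences was not tested. Myog was named outside the rule, after its values were seen.

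**Figure D5:**
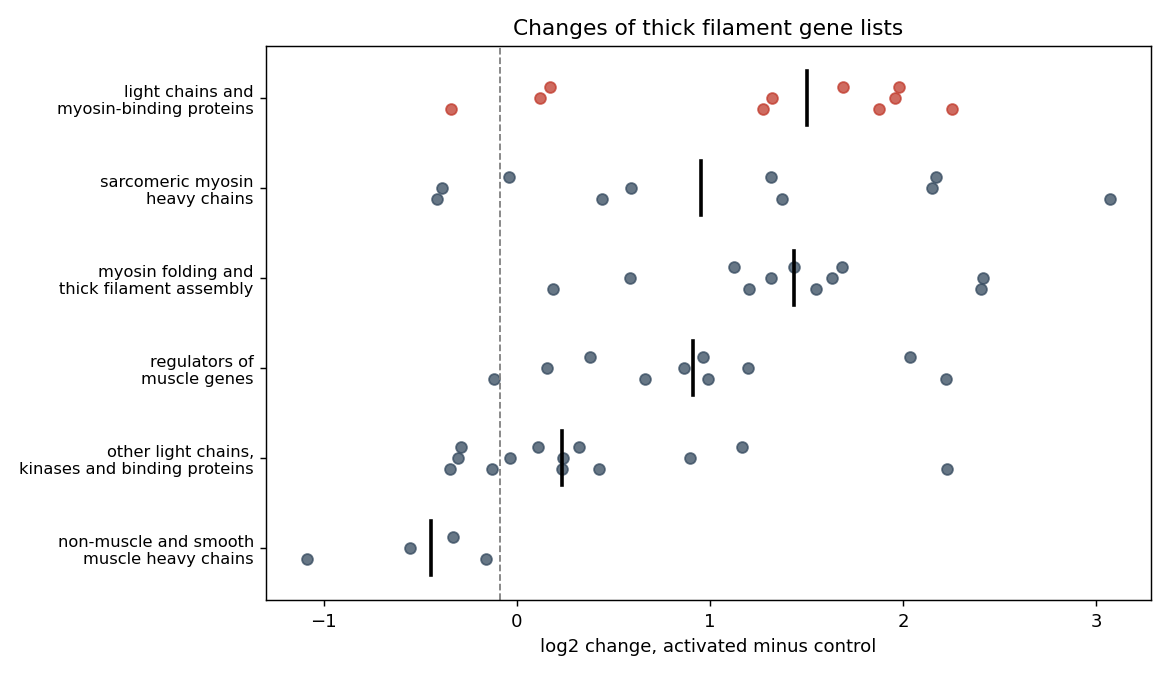
Log2 change, activated minus control (horizontal axis), of each gene of 6 lists. Points are genes, spread vertically only to show them, black bars are list medians and the dashed line is the median of all genes (-0.08); the list of the 10 genes has its median at 1.51 and the non-muscle and smooth muscle heavy chains at -0.44.

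The targeted gene Ctnnb1 was at 7.91, 8.79 and 8.91 in activated cultures, against 8.54, 8.71 and 8.30 in control cultures. Which exons its probe set covers is not given, so these values do not check the loss of 1 exon. Axin2, a feedback target of beta-catenin, averaged 5.96 ± 0.53 in activated and 4.32 ± 0.44 in control cultures (SD, n = 3 each), without overlap. In 5.4% of all genes each activated array lay above each control array. Axin2 did not pass limma's test over all genes (adjusted p = 0.29, and 0.0845 with the block). Array medians were 4.04 to 4.25 in activated and 4.16 to 4.36 in control cultures, and the SD over all probe sets was 1.88 to 2.12 in activated and 1.72 to 2.01 in control cultures. Control replicate 3 stood farthest from the rest, with a mean correlation of 0.895 to the other 5 arrays. The 9 myoblast markers averaged 7.93 to 8.54 in activated and 7.68 to 8.29 in control cultures. Of these, 7 averaged higher in activated cultures: Des (1.56), Cdh15 (1.03), Itga7 (0.98), Ncam1 (0.86), Chrna1 (0.83), Myf5 (0.38) and Myod1 (0.16). The 2 lower were Vcam1 (-1.38) and Pax7 (-0.60). Cardiac markers, counted because several light chains are shared with the heart, averaged 3.46 to 3.74 in activated and 3.63 to 4.15 in control cultures, and 8 of 9 were lower in activated cultures. Smooth muscle and pericyte markers averaged 5.33 to 5.73 in activated and 5.55 to 5.73 in control cultures, with 3 of 8 higher. Of 8 fibroblast, 7 leukocyte and 7 endothelial markers, 2, 1 and 1 averaged higher in activated cultures. Over all genes 40.3% did. The part of these markers in the light chain differences was not tested.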

How the data were processed

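Gene expression was measured in 6 cultures on Affymetrix arrays, from 100 ng of total RNA labelled by a whole-transcript assay, as the labels' protocols state. The authors deposited 1 log2 value per probe set and array, and RMA and Partek are named in the submitters' processing notes, without version or role. No array design, genome build or detection call is named there. GEO's platform annotation gave 1 symbol to 23281 of 24479 probe sets, several to 0 and none to 1198. For 2 symbols with several probe sets the one with the highest mean was kept, leaving 23279 genes. All 10 genes had their Entrez number in RefSeq's gene table.

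From the deposited values, limma 3.58.1 in R 4.3.3 fitted group as the only term, with two-sided moderated tests adjusted by Benjamini-Hochberg over all genes. No filter or pseudocount was applied. The steps were tested on simulated data. The labels call the cultures independent without naming their animals, and the p-values reflect only the spread among these cultures, and the number of arrays limits the precision. Deviations from group means of same-numbered arrays correlated at 0.38, 0.487 and 0.45, all above 0.1, so the title numbers were taken to pair the cultures. The SD over probe sets was lowest in replicate 1 and highest in replicate 2 of both groups, which can also make deviations correlate. The pairing is therefore not established. A fit with the number as a block is given where it changes a count or call. Alternatives were the block, median centring, quantile normalization, cyclic loess, a mean of at least 5, an intensity trend with robust moderation, and leaving out each array or pair.

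All 10 genes are named, with the 3 genes of smallest p in each comparison list and the 6 nearest patterns. The genes and lists were chosen with earlier results of these data known.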

Additional observations from a re-analysis of the deposited data

How the results depend on the processing

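Over the 16 alternatives, the log2 changes of the 10 genes gave 157 values, since the filter at a mean of 5 removed Myl2, Myl3 and Mybpc2. The direction turned in 3 of them, all for Mylk2: -0.18 without control replicate 2, and -0.075 and -0.055 with the replicate block and without replicate pair 1 or 2. With 1 array left out the change of Mylk2 reached 0.527 at most. The other genes kept their direction. The block on all arrays, the filter and the intensity trend cannot alter a log2 change in this balanced design, so their values repeat the deposited ones. Quantile normalization with the block likewise repeats the values without it, so the 157 values are not all separate checks. The changes of Myl4, Mylpf, Myl6b and Mybpc1 dropped to 1.07, 0.70, 1.13 and 0.73 without control replicate 3, and none of them passed before or after. Scaling moved changes too. Under quantile normalization and under cyclic loess, respectively, Mybph went from 2.25 to 1.95 and 1.81. In the same order Myl4 went from 1.96 to 1.62 and 1.42, and Myl6b from 1.98 to 1.63 and 1.55. Myl1 went from 1.88 to 1.50 and 1.40, and Mylpf from 1.69 to 1.35 and 1.09. Myl2 rose from 1.32 to 1.36 and 1.52, and Mybpc2 from 0.17 to 0.35 under either. With the replicate block and without replicate pair 3, 3 of the 10 genes passed after adjustment: Myl1 (2.12), Mybph (2.09) and Mybpc1 (1.46), where 501 genes passed in all. The cause of these shifts was not tested.

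The count of the 10 genes at an unadjusted p under 0.05 was 7 with the block, against 16.6% of all genes. It was also 7 after quantile normalization with the block, against 13.8%. When 1 array was left out it was 1 to 6, against 3.9% to 13.2% of all genes. With the block and 1 pair left out it was 6 to 7, against 12% to 15.2%. The count of genes without overlap between groups was 4 to 7 when 1 array was left out, where 16.7% to 34.5% of all genes had no overlap, against 12.8% with all arrays. Groups that are apart on all arrays stay apart when 1 is left out, so this count cannot fall. Over all genes, the count past adjustment was 31 with the block, 0 to 501 with the block and 1 pair left out, and 0 to 28 when 1 array was left out. The count of all genes at an unadjusted p under 0.05, 1830 on the deposited values, was 3875 with the block, 3201 with the block after quantile normalization and 921 after the filter, where 9001 genes were tested. It ran from 907 to 3066 when 1 array was left out and was 2822, 2787 and 3528 with the block and without pair 1, 2 or 3. The median change of regulators of muscle genes was 0.57 after quantile normalization (0.57 with the block too) and 0.47 after cyclic loess. The median of the other light chain and kinase genes was 0.049 after cyclic loess and 0.66 after the filter, and 0.0061 to 0.251 when 1 array was left out. After the filter the median of sarcomeric heavy chains was 2.16 and that of non-muscle and smooth muscle heavy chains -0.82. That last median ran from -0.74 to -0.26 when 1 array was left out. Median centring moved the median of all genes by 0.13, to 0.04, and the deposited changes are not corrected for it.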
